A study of Mus musculus with 6 samples.

Results

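Runx1, Runx2 and Runx3 encode the mammalian Runx transcription factors, and their loci were followed here in chromatin accessibility data from mouse bone marrow. The data are lists of ATAC-seq peaks, stretches of DNA into which a transposase readily inserts sequencing adapters. Overlapping peaks of the 6 libraries (1 bp or more) were joined into 69171 regions. The members are the regions whose nearest protein-coding gene within 100 kb is Runx1, Runx2 or Runx3 in RefSeq (mm10). There were 75 of them, 30 at Runx1, 17 at Runx2 and 28 at Runx3, among 65361 regions assigned to any gene. Of the 17 at Runx2, 2 also overlapped Supt3, whose interval overlaps that of Runx2, and they were kept.

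The study sorted 3 populations from naive Adig mice on the Balb/c background, in which GFP reports expression of Aire, the autoimmune regulator. The pc-BMACs were AireGFP+B220-CD138+TACI+, so they carry the surface markers of plasma cells together with the reporter. Plasma cells were AireGFP-B220-CD138+TACI+ and immature B cells AireGFP-B220+CD138-TACI-IgM+. Each population had 2 libraries of 2000 to 15000 cells. Separate animals are not stated for the 2 libraries of a population, so their spread may be technical, and the labels used here give no age.

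Runx proteins bind DNA through the Runt domain, as a dimer with the non-binding partner Cbfb, at sites with the core ACCACA, read on either strand. In mice each gene is transcribed from a distal promoter, P1, and a proximal promoter, P2, which give proteins with different N-termini. Runx1 is required for definitive blood stem cells and acts early in the B lineage. Runx3 is known for its roles in cytotoxic T cells, NK cells and dendritic cells. Runx2 is the master regulator of bone-forming osteoblasts and is also expressed in plasmacytoid dendritic cells.

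The promoters of the 3 genes can be read in the RefSeq promoter windows (GRCm38.p6, the assembly of mm10), each 250 bases before to 50 bases after an annotated start. All 3 genes matched, with 2 starts for Runx1 and for Runx3 and 1 for Runx2, called P1 and P2 here in their order along the gene. The P2 of Runx2 was not among these windows, so calls at it were not examined. The longest run of letters common to the 3 P1 windows is shown first, since these windows differed in their calls. It is 18 bases long and holds the core 2 times in tandem; the 18 bases are in capitals within 30 bases of each window.
Runx3 P1 site, chr4:135120503-135120532, plus strand: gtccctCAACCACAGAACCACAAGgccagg
Runx1 P1 site, chr16:92826025-92826054, minus strand: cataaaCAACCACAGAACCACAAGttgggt
Runx2 P1 site, chr17:44814583-44814612, minus strand: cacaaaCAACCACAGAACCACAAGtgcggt
The shared run begins at position -136 from the annotated start of Runx3 P1, that is upstream of it, and at base 27 of the Runx1 and base 22 of the Runx2 transcript. Among 32817 promoter windows of the genome, searched on both strands, 4 held these 18 letters (0.0122%). They were the 3 Runx P1 windows and that of Gm16225, an lncRNA on the other strand whose window overlaps that of Runx3 P1. The core ACCACA alone, on either strand, was in 16.8% of all windows. A match describes the letters and does not show binding.

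The lists held 38607 and 34070 peaks among pc-BMACs, 37821 and 36723 among plasma cells and 51643 and 46534. among immature B cells No reads or heights were given, so depth is unknown and a region without a call is not shown to be closed. Peak width can depend on depth as well. Genes of the B cell marker list had calls in every population, at 45 and 34 of the list's 89 regions for pc-BMACs, 51 and 50 for plasma cells and 69 and 63 for immature B cells. Plasma cell markers had calls at 8 of 8 genes in every library but immature B cells 2, with 7. Plasma cells 1 had called regions at all 6 erythroid marker genes, Hba-a1, Hbb-bt, Gata1 and Alas2 among them, and every other library at 2 of the 6. Counts of the Runx genes between pc-BMACs and plasma cells are therefore also given without plasma cells 1. Those of other gene lists are given only with it. With 2 libraries against 2, the smallest two-sided exact permutation p is 0.333, so no p over libraries is given anywhere. The shares over all regions serve as the measure of how common a difference was.

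The 3 P1 windows with this shared sequence differed in their calls. The Runx1 P1 window had a peak in all 6 libraries, the Runx3 P1 window in 4 of 6 and the Runx2 P1 window in none. At Runx3 P1 the region chr4:135120240-135120726 was listed with 0 and 0 bp of peak in pc-BMACs 1 and 2, against 487 and 457 bp in plasma cells and 423 and 349 bp in immature B cells. Both pc-BMAC libraries thus lacked a call that the other 4 libraries had, and the 30-base site above lies inside the peak of each of those 4. Of all promoter windows with a peak in either population, 1.91% had one in both plasma cell and neither pc-BMAC libraries, and 4.61% in both immature B cell and neither pc-BMAC libraries. The full pattern of Runx3 P1 was found in 0.555% of the 32817 windows. No Runx window showed the opposite, a peak in both pc-BMAC libraries and in neither of plasma cells (2.34% of windows) or of immature B cells (2.79%). None separated plasma cells from immature B cells, where 1.52% of windows had a peak in plasma cells alone and 3.51% in immature B cells alone. The region also holds the start of Gm16225, so peaks of the 2 starts cannot be told apart. The nearest peak to the Runx3 P1 start lay 4024 and 3960 bases away in the pc-BMAC libraries.

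Runx3 P2, in contrast, was covered in all libraries, with 2836 and 2247 bp of peak for pc-BMACs, 2291 and 2008 bp for plasma cells and 2290 and 2135 bp for immature B cells. The populations overlapped in this width. The 250 bases before each Runx3 start are shown, with each core, on either strand, in capitals, because the pair carries the contrast between a start called in 4 libraries and one called in 6.
Runx3 P1, chr4:135120395-135120644, plus strand: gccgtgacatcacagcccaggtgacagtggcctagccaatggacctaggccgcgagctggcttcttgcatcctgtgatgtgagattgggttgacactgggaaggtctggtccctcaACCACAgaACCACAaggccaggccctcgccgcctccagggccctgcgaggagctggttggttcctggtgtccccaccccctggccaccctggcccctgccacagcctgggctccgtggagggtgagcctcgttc
Runx3 P2, chr4:135152295-135152544, plus strand: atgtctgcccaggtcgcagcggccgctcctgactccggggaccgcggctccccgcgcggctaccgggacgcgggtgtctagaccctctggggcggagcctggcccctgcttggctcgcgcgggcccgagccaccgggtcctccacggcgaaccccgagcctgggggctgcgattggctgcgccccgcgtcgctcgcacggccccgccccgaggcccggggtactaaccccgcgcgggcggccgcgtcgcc
The P2 window held 45 CpG dinucleotides and a GC share of 77.3%, against 8 CpG and 63.7% at P1, with a median of 7 CpG and 52.7% over all windows. The letters ACCACA occurred on neither strand in the P2 windows of Runx3 and Runx1, and only these exact letters were searched.

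Runx1 had peaks at both starts in every library. The P1 region chr16:92824712-92826642 carried 1607 and 536 bp of peak among pc-BMACs, 1571 and 1360 bp among plasma cells and 1931 and 1825 bp among immature B cells. The P2 region chr16:92696551-92699028 carried 1559 and 1111 bp in the pc-BMAC libraries, 2052 and 2282 bp in the plasma cell libraries and 2381 and 2264 bp in the immature B cell libraries. At P2 the pc-BMAC libraries had the narrowest coverage of the 6 without overlap with the others, while at P1 pc-BMACs overlapped with plasma cells and both immature B cell libraries lay above the other 4. The P1 window was poor in CpG (2, GC share 45%) and the P2 window rich (35, 69%). Of all windows 33.3% had a peak in all 6 libraries, and these were common among CpG-rich windows: 60.7% of those at or above the median CpG number were covered in this way, against 3.50% of those below it. Runx1 P1, with its 2 CpG, fell below the median.

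The Runx2 P1 window is shown because it shares the tandem site but had no peak in any library.
Runx2 P1, chr17:44814628-44814877, minus strand: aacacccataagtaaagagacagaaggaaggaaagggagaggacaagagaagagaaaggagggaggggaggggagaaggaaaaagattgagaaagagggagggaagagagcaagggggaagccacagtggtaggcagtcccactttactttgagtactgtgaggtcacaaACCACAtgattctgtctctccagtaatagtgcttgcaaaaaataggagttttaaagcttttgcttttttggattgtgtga
The nearest peaks to the start were 36778 and 36816 bases away for pc-BMACs, 36884 and 36808 for plasma cells and 22211 and 22335 for immature B cells. Such windows were common, since 58.0% of all promoter windows had no peak in any library. The plot of peaks around the starts shows the 5 windows side by side.

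**Figure D1:**
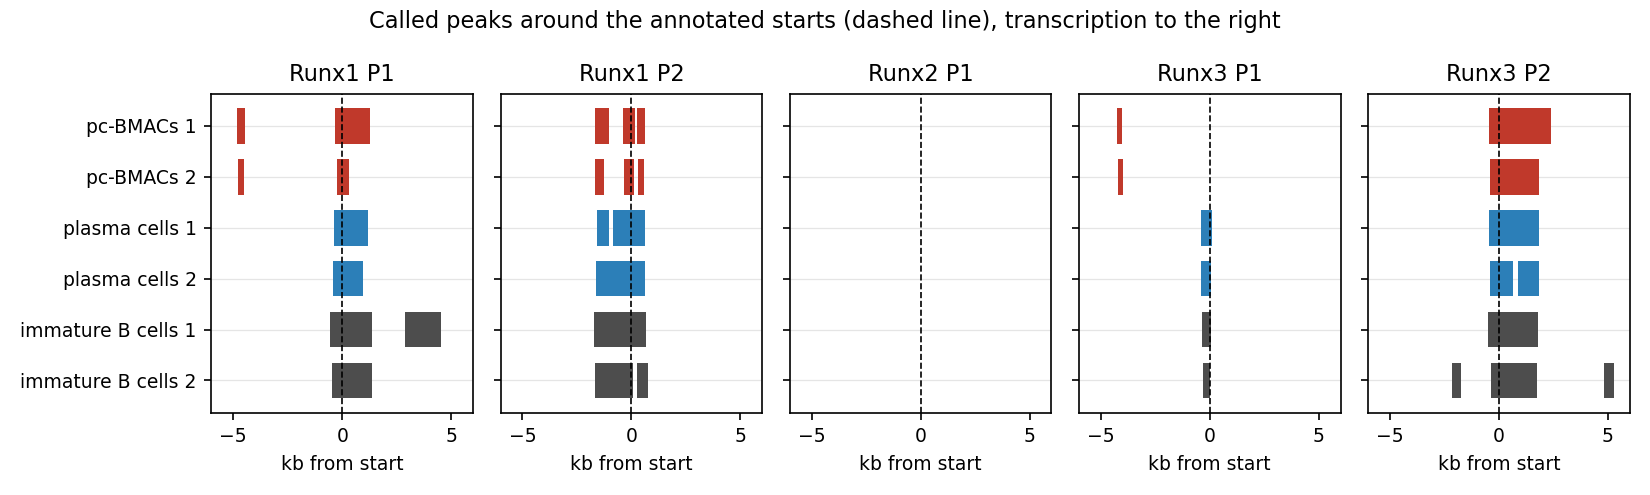
Called peaks within 6 kb of the annotated starts of Runx1 (P1, P2), Runx2 (P1) and Runx3 (P1, P2); the x axis is the distance from the start in kb in the direction of transcription, each row is a library and each bar a peak. At Runx3 P1 the 4 plasma cell and immature B cell libraries have a peak on the start, while the nearest peaks of the pc-BMAC libraries end 4024 and 3960 bases before it.

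A pc-BMAC peak just upstream of P1 occurred at 2 of the genes. Upstream of Runx3, chr4:135116379-135116685 was called with 243 and 246 bp in pc-BMACs 1 and 2 and in no plasma cell or immature B cell library, 3960 bases before the gene. Upstream of Runx1, chr16:92830549-92830887 was called with 339 and 258 bp in pc-BMACs 1 and 2 and in none of the other 4, 4475 bases before the gene. Of all assigned regions, 4.53% were called in both pc-BMAC libraries alone.

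**Figure D2:**
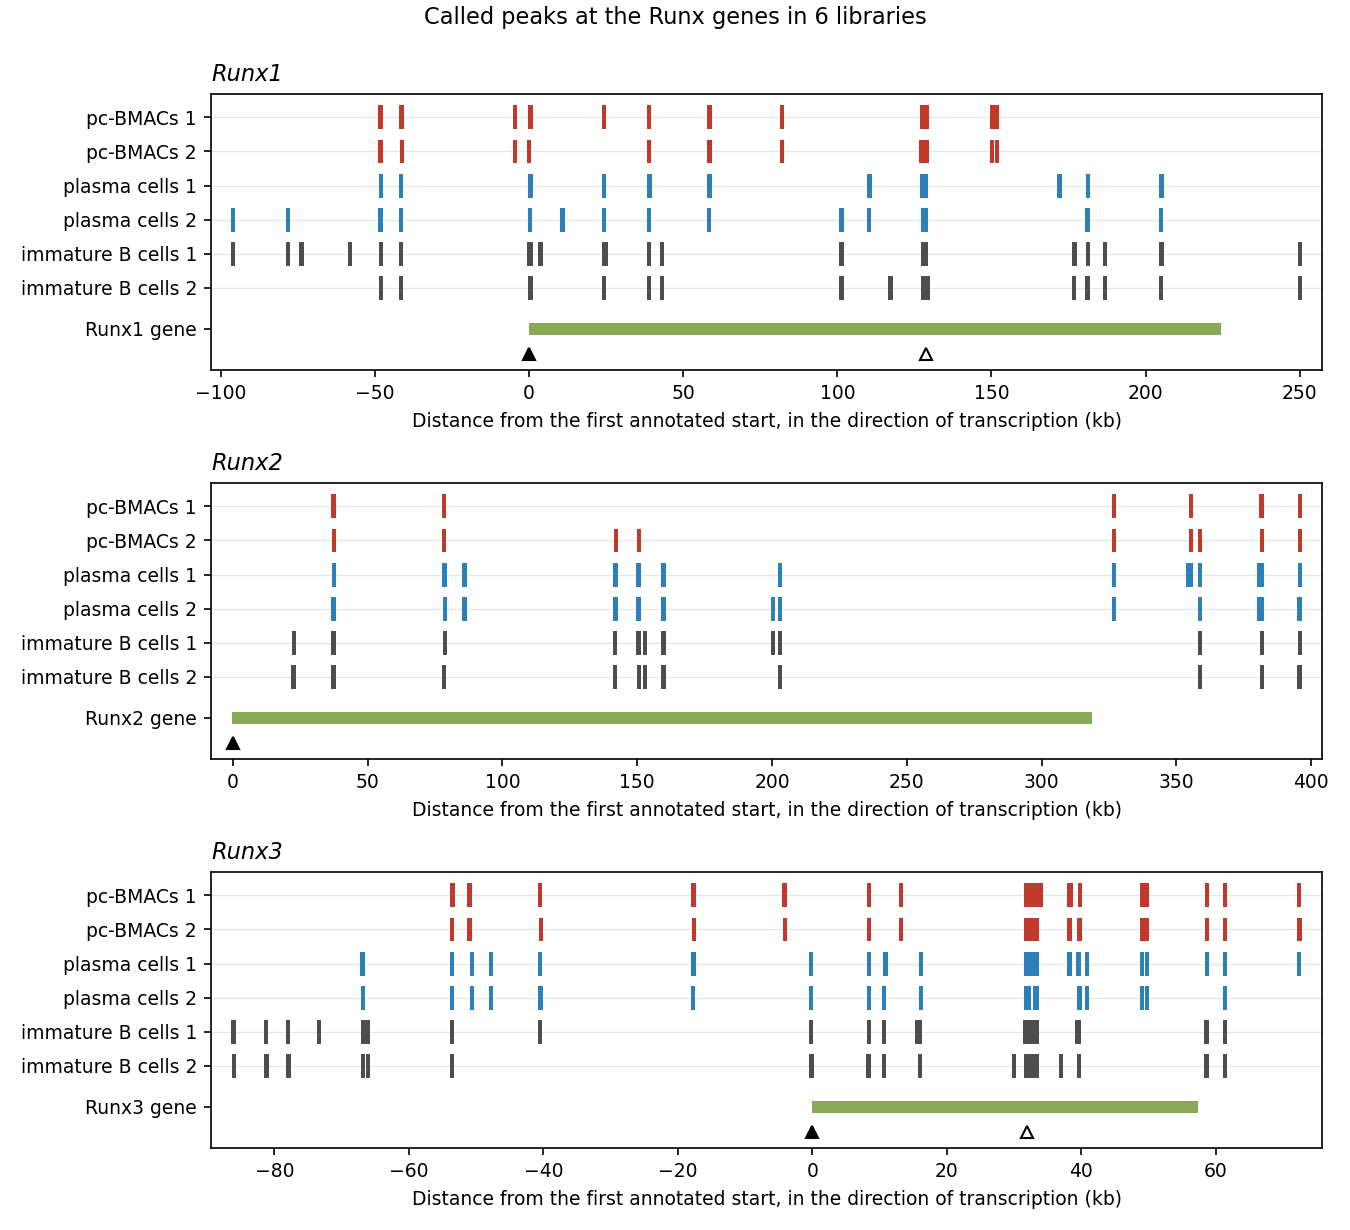
Called peaks of the 75 member regions by library, with x as the distance in kb from the first annotated start in the direction of transcription; filled triangles mark P1, open triangles P2, green bars the genes, and narrow peaks are widened to be visible. The pc-BMAC rows show peaks of their own near 150 kb in Runx1, and few peaks inside Runx2 against the plasma cell and immature B cell rows.

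Inside Runx1, whose intron between P1 and P2 is known to hold a blood enhancer in mice, the populations differed in which stretches were called. The gene spans chr16:92601466-92826074 on the minus strand, with P2 128.7 kb after P1. Of its 30 regions, 22 overlapped the gene, 7 lay upstream and 1 downstream. Regions called in all 6 libraries numbered 5, the 2 starts, chr16:92786890-92787396 in the intron, and chr16:92867140-92868107 and chr16:92873801-92874510 upstream of P1. Of the upstream regions, the one nearer the gene carried 368 and 278 bp among pc-BMACs, 811 and 731 bp among plasma cells and 968 and 803 bp among immature B cells. The farther one carried 237 and 189 bp in the pc-BMAC libraries, 336 and 315 bp in the plasma cell libraries and 710 and 515 bp in the immature B cell libraries. In both, the pc-BMAC coverage was the narrowest and did not overlap with the other populations.

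Downstream of P2, pc-BMACs 1 and 2 shared 2 regions, chr16:92674064-92674514 (451 and 187 bp) and chr16:92675620-92676171 (552 and 235 bp), that no other library had. A stretch between them, chr16:92674999-92675330, was called in pc-BMACs 1 alone. The intron region chr16:92743781-92744073 was also of pc-BMACs alone (293 and 249 bp), which with the upstream one made 4 at Runx1. Farther into the gene lay regions called in the other populations and not in pc-BMACs. At chr16:92644546-92645132 there were 0 and 0 bp for pc-BMACs, 277 and 311 bp for plasma cells and 587 and 342 bp for immature B cells. At chr16:92620755-92621281 there were 0 and 0 bp among pc-BMACs, 202 and 527 bp among plasma cells and 228 and 371 bp among immature B cells. Of the 4 regions that only immature B cells 1 and 2 had, chr16:92649208-92649574 and chr16:92639121-92639471 lay in the same end of the gene.

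One Runx1 intron region separated the pc-BMAC libraries from each other. chr16:92801528-92802118 had 150 and 0 bp in the pc-BMAC libraries, 524 and 488 bp in the plasma cell libraries and 581 and 539 bp in the immature B cell libraries. The 150 bp of pc-BMACs 1 equals the smallest peak width in the lists. The region chr16:92767194-92767859 showed the other order, with 666 and 534 bp for pc-BMACs, 441 and 400 bp for plasma cells and 0 and 0 bp for immature B cells. It overlaps the end of Gm30281, an lncRNA.

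Runx3 spans chr4:135120645-135177990 on the plus strand and had 16 of its 28 regions outside the gene, 13 upstream and 3 downstream. Between P1 and P2 lay 3 regions that divided pc-BMACs from all other libraries. At chr4:135131143-135131879 there were 0 and 0 bp among pc-BMACs, 698 and 368 bp among plasma cells and 318 and 150 bp among immature B cells. At chr4:135135968-135137019 there were 0 and 0 bp in the pc-BMAC libraries, 243 and 241 bp in the plasma cell libraries and 1052 and 627 bp in the immature B cell libraries. At chr4:135133659-135134020, between them, pc-BMACs had 362 and 233 bp and the other 4 libraries 0 bp. Over these 3 regions the calls of pc-BMACs and of the other populations thus alternated. Also between the starts, chr4:135128794-135129408 was called in all 6 libraries and chr4:135150415-135150819 in immature B cells 2 alone.

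Past P2, Runx3 had regions of pc-BMACs and plasma cells without immature B cells. chr4:135169401-135170714 carried 1314 and 1292 bp for pc-BMACs, 979 and 784 bp for plasma cells and 0 and 0 bp for immature B cells. chr4:135158578-135159370 carried 793 and 457 bp among pc-BMACs, 389 and 0 bp among plasma cells and 0 and 0 bp among immature B cells. Past the gene, chr4:135192826-135193224 carried 396 and 244 bp in the pc-BMAC libraries, 284 and 0 bp in the plasma cell libraries and 0 and 0 bp in the immature B cell libraries. Both of these regions had a call in plasma cells 1 and not in plasma cells 2. Plasma cells alone had chr4:135161154-135161809, with 656 and 481 bp.

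Upstream of Runx3, all 4 regions with calls in immature B cells 1 and 2 alone lay far out, between 65909 and 85926 bases before the gene. chr4:135066726-135067433, nearer to it, was called in all 6 libraries, with 624 and 570 bp for pc-BMACs, 566 and 563 bp for plasma cells and 676 and 683 bp for immature B cells. Next came a pair of neighbours 99 bases apart. The first, chr4:135069566-135069790, had 150 and 225 bp in pc-BMACs and 0 bp in the other 4 libraries. The second, chr4:135069890-135070206, had 281 and 200 bp in plasma cells and 0 bp in the other 4. With peaks merged within 200 bp this pair became 1 region, and Runx3 then had 2 regions of pc-BMACs only and 6 of plasma cells only in place of 3 and 7 (called in both libraries of the one population and neither of the other).

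Runx2 spans chr17:44495987-44814797 on the minus strand. Its 10 regions inside the gene had 2 and 4 calls among pc-BMACs, 7 and 8 among plasma cells and 9 and 8 among immature B cells, with no overlap between pc-BMACs and the others. Of the 7 downstream regions, 4 and 5 were called in the pc-BMAC libraries, 7 and 5 in the plasma cell libraries and 3 and 3 in the immature B cell libraries. No region of Runx2 was called in the pc-BMAC libraries alone. chr17:44654562-44655251 had 0 and 0 bp of peak for pc-BMACs, 570 and 515 bp for plasma cells and 690 and 659 bp for immature B cells. chr17:44672223-44673183 had 0 and 239 bp among pc-BMACs, 721 and 664 bp among plasma cells and 883 and 755 bp among immature B cells. In both stretches pc-BMACs were the lowest, and in the second pc-BMACs 2 had a call that pc-BMACs 1 lacked.

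At Runx2, 4 regions were called in all 6 libraries. One of them, chr17:44776594-44777849, holds the start of Supt3, a subunit of a transcription coactivator complex, and carried 1208 and 1218 bp in the pc-BMAC libraries, 1086 and 1117 bp in the plasma cell libraries and 1091 and 1096 bp in the immature B cell libraries. Another, chr17:44735166-44736742, lies inside the gene 78.7 kb after P1 and carried 898 and 684 bp for pc-BMACs, 1337 and 1342 bp for plasma cells and 1533 and 867 bp for immature B cells. Downstream of the gene, chr17:44487569-44488149 was shared by pc-BMACs (523 and 526 bp) and plasma cells (495 and 447 bp), with 0 bp in both immature B cell libraries. chr17:44791513-44792416 was called in immature B cells alone (904 and 574 bp) and overlaps Supt3 as well. With no P2 start of Runx2 among the promoter windows, whether a region inside the gene holds it was not tested.

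Counted per library, Runx2 had fewer called regions in pc-BMACs than in the other populations. Runx2 had 6 and 9 called regions among pc-BMACs, 14 and 13 among plasma cells and 12 and 11. among immature B cells The pc-BMAC counts lay below all 4 others. Runx3 had 14 and 14 in the pc-BMAC libraries, 18 and 15 in the plasma cell libraries and 16 and 16 in the immature B cell libraries, so pc-BMACs were again lowest, while plasma cells and immature B cells overlapped. Runx1 had 12 and 10 for pc-BMACs, 11 and 14 for plasma cells and 20 and 14 for immature B cells. Here pc-BMACs overlapped with plasma cells and lay below immature B cells. These counts stand beside all regions near genes, of which 56.3% and 48.8% were called for pc-BMACs, 52.8% and 51.3% for plasma cells and 73.8% and 64.9% for immature B cells. As shares of its 17 regions, Runx2 had 35.3% and 52.9% for pc-BMACs, 82.4% and 76.5% for plasma cells and 70.6% and 64.7% for immature B cells. Of these, both plasma cell shares lay over 10 percentage points above the share of all regions in the same library. That of pc-BMACs 1 lay over 10 points below it, while that of pc-BMACs 2 lay above it by less than 10 points. The 50% of Runx3 regions called in each pc-BMAC library also lay within 10 points of the share of all regions. Runx1 had 40% and 33.3% of its 30 regions called for pc-BMACs, 36.7% and 46.7% for plasma cells and 66.7% and 46.7% for immature B cells. Each of these Runx1 shares lay below that of all regions in the same library.

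Over the 3 genes pc-BMACs had 32.5 ± 0.71 called regions, plasma cells 42.5 ± 0.71 and immature B cells 44.5 ± 4.95 (SD, n = 2 each). Since the lists differ in length, the members were also taken as a share of each list's regions near genes. The share was 0.0870% and 0.103% among pc-BMACs, 0.125% and 0.125% among plasma cells and 0.0995% and 0.0967%. among immature B cells By share the plasma cell libraries were highest, and pc-BMACs overlapped with immature B cells. All 3 genes were rich in regions: the median gene had 3, and 537 of 15938 genes had as many as Runx2 or more.

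**Figure D3:**
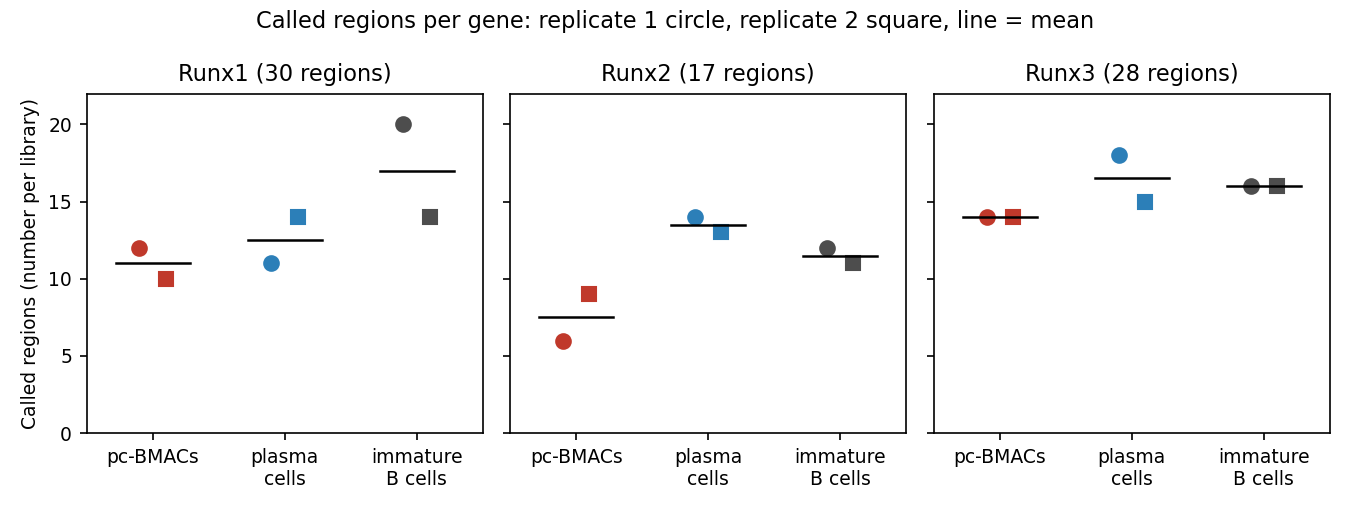
Called regions per library (y axis, number) at Runx1, Runx2 and Runx3; circles are replicate 1, squares replicate 2 and lines the mean of the 2 libraries. At Runx2 the pc-BMAC libraries had 6 and 9 regions, below the 14 and 13 of plasma cells and the 12 and 11 of immature B cells.

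Between pc-BMACs and plasma cells, the Runx genes had more plasma-cell-only than pc-BMAC-only regions. Of 56 member regions called in at least 1 of the 4 libraries, 7 (12.5%) were called in both pc-BMAC and neither plasma cell libraries, against 8.48% of all such regions near genes. The opposite pattern held for 14 (25.0%), against 8.99% of all regions. Genes as rich in regions as Runx2 or richer, a background chosen after the values were seen, had 11.2% and 9.91%. Runx1 had 4 regions of pc-BMACs only and 3 of plasma cells only, Runx2 had 0 and 4, and Runx3 had 3 and 7. Without plasma cells 1, whose list has the erythroid calls, there were 11 regions of pc-BMACs only and 19 of plasma cells only, with 4 and 7 at Runx1, 1 and 5 at Runx2 and 6 and 7 at Runx3. The direction at Runx1 was thus turned and the difference at Runx3 reduced to 1 region. Leaving out a library also loosens the rule to 1 library of that population, and no count fell when this was done. The part of the erythroid calls in these shifts was not tested. Without pc-BMACs 2, Runx2 had 0 and 7. Counting a region only where peaks covered 50% of it or more, Runx3 had 4 and 4, and Runx1, with 2 and 3, turned its direction here too.

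Against immature B cells, 14 of 66 member regions (21.2%) were pc-BMAC-only, against 10.5% of all regions, and 19 (28.8%) were immature-B-only, against 23.0% of all regions. In genes rich in regions the shares were 14.4% and 23.7%. The counts, pc-BMAC-only first, were 5 and 7 at Runx1, 2 and 4 at Runx2 and 7 and 8 at Runx3. Without immature B cells 2 the immature-B-only count of Runx1 was 14, and without pc-BMACs 2 that of Runx2 was 7. In lists of equal length, cut to the widest 34070 peaks of each library, the family had 13 pc-BMAC-only and 10 immature-B-only regions, which turns the balance, with 5 and 4 at Runx1, 2 and 2 at Runx2 and 6 and 4 at Runx3. Within 20 kb of the gene Runx3 had 6 and 3. The full lists of immature B cells were the longest of the 6.

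Plasma cells against immature B cells gave 10 of 67 member regions (14.9%) in each direction. Of all regions, 6.46% were plasma-cell-only and 18.4% immature-B-only, and in genes rich in regions 8.85% and 19.7%. The plasma-cell-only and immature-B-only counts were 2 and 4 at Runx1, 3 and 2 at Runx2 and 5 and 4 at Runx3. With lists of equal length they were 13 and 4 over the family, and without immature B cells 2 they were 10 and 16, with 2 and 9 at Runx1. Without plasma cells 2, Runx2 had 5 and 2, and inside the gene it had 1 and 2. The 3 comparisons share libraries, so they are not independent.

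Over all 6 libraries, 14 of the 75 member regions (18.7%) were called everywhere, against 30.6% of all regions near genes and 23.2% in genes rich in regions. Regions of pc-BMACs alone numbered 7 (9.33%, against 4.53% of all regions) and those of immature B cells alone 10 (13.3%, against 13.6%). Those of plasma cells alone numbered 6. The plasma cell share of 8% stood beside 1.51% of all regions and 1.71% in genes rich in regions. Regions of plasma cells and immature B cells without pc-BMACs numbered 8 (10.7%, against 4.68%), and those of pc-BMACs and plasma cells without immature B cells 4 (5.33%, against 3.73%). None belonged to pc-BMACs and immature B cells without plasma cells, a pattern held by 1.07% of all regions. In 26 of the 75 regions the replicates of a population differed, and 13 were called in a single library. Regions called everywhere had a median width of 788.5 bp, against 305 bp for those of a single library. Because a region joins the peaks of all libraries, its width is tied to how many call it.

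**Figure D4:**
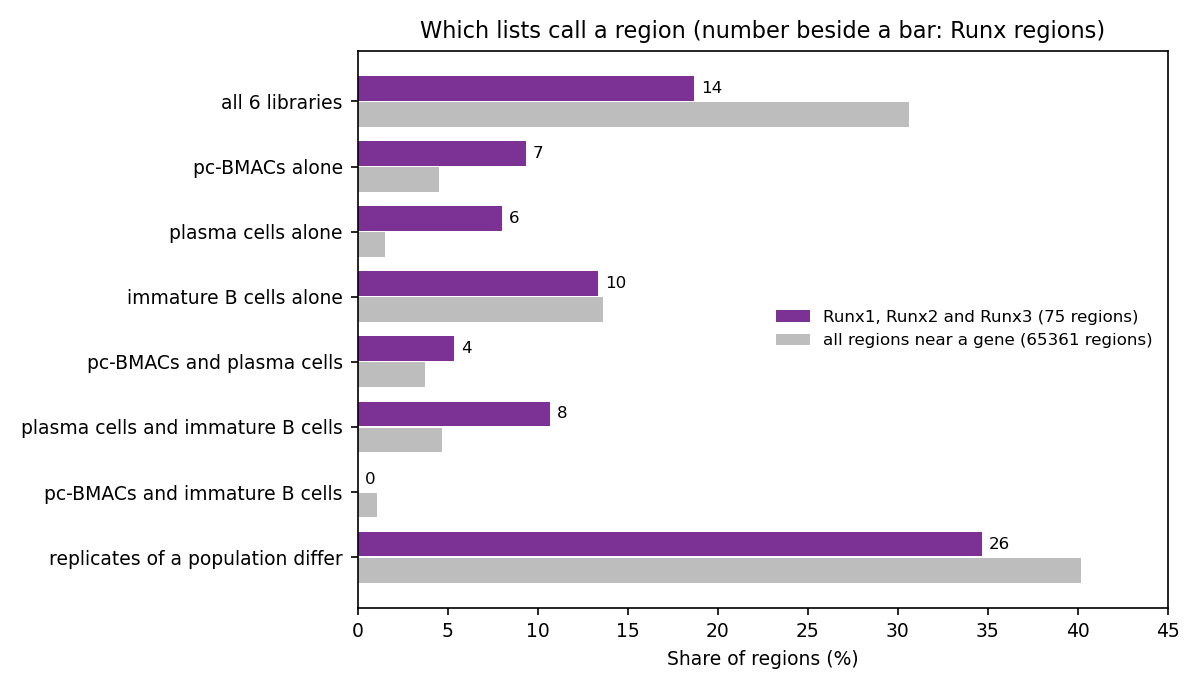
Share of regions (x axis, %) by which lists call them, for the 75 member regions (purple, with their number) and all 65361 regions near a gene (grey); a population is counted where both its libraries have a call. Regions of plasma cells alone made up 8% of the members and 1.51% of all regions.

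The genes most like each member were found from the share of their own regions called in each of the 6 libraries, among the 1545 genes with at least 10 regions, by Euclidean distance. For Runx1 they were Mib1, St3gal5 and Ctif, at distances of 0.0932, 0.120 and 0.124, where the median gene was at 0.463. For Runx2 they were Ssbp3, Tmem131 and Cradd, at 0.170, 0.186 and 0.200 (median 0.595). For Runx3 they were Cmip, Tspan2 and Rbms1, at 0.104, 0.113 and 0.133 (median 0.425). The measure is a description over 6 libraries, whose lists differ in length.

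Partners and cofactors of Runx proteins, 26 genes with 232 regions, had region shares near those of all regions (8.48% and 8.99%) between pc-BMACs and plasma cells. Their pc-BMAC-only regions numbered 18 of 175 (10.3%) and their plasma-cell-only regions 19 (10.9%). Of the 26 genes, 5 (19.2%) had more pc-BMAC-only and 9 (34.6%) more plasma-cell-only regions, against 13.8% and 15.1% of all 15938 genes. Of all genes, 11329 had equal counts, and the median gene had 3 regions. A gene with few regions has few chances to differ. Shares of genes, here and for the comparisons below, were not matched for the number of regions. The median difference per gene was 0 in the list and over all genes. Cbfb, the shared partner, had 1 and 1 regions with a call for pc-BMACs, 2 and 3 in the plasma cell libraries and 3 and 3 in the immature B cell libraries, out of 3. The pc-BMAC libraries thus had the fewest calls at this gene of 3 regions, while at other partners, such as Cbfa2t2, they had the most.

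Among the cofactors, the Eto family corepressor genes Cbfa2t2 and Cbfa2t3 differed in opposite directions. Cbfa2t2 had 7 and 6 called regions for pc-BMACs, 1 and 2 for plasma cells and 3 and 3 for immature B cells, with 4 regions of pc-BMACs only and 0 of plasma cells only. Cbfa2t3 had 14 and 13 among pc-BMACs, 18 and 16 among plasma cells and 12 and 9 among immature B cells, with 0 and 3. Fli1, an ETS factor that partners Runx1 in blood progenitors, had 16 and 10 in the pc-BMAC libraries, 10 and 8 in the plasma cell libraries and 12 and 12 in the immature B cell libraries, with 5 and 2. Smad3, a transducer of TGF-beta signals, had 2 and 2. Tle3 and Smad1, with 1 and 2 each, had as many population-only regions in all as Cbfa2t3.

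Against immature B cells, the partner list had 31 of 216 regions (14.4%) in pc-BMACs only and 51 (23.6%) in immature B cells only, beside 10.5% and 23.0% of all regions. More pc-BMAC-only regions were found at 6 genes (23.1%) and more immature-B-only regions at 12 (46.2%), against 13.6% and 35.2% of all genes. Tle3, a Groucho corepressor recruited by Runx proteins, had 3 and 8, Cbfa2t3 had 7 and 4, Fli1 5 and 5 and Smad3 5 and 4. Plasma cells against immature B cells gave 24 (11.7%) and 41 (20%) of 205 regions, beside 6.46% and 18.4% of all regions. There, Cbfa2t3 had 7 plasma-cell-only and 2 immature-B-only regions, Tle3 4 and 6, Fli1 1 and 5, the kinase gene Hipk2 2 and 4 and, tied with these, Tle4 1 and 5.

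Genes known as Runx targets in blood or bone cells, 32 genes of which 27 had a region, showed more plasma-cell-only regions. Of 143 regions, 8 (5.59%) belonged to pc-BMACs only and 25 (17.5%) to plasma cells only, beside 8.48% and 8.99% of all regions. More pc-BMAC-only regions were found at 4 of the 27 genes (14.8%) and more plasma-cell-only regions at 10 (37.0%), against 13.8% and 15.1% of all genes, with a median difference of 0 per gene. These shares of genes were likewise not matched for the number of regions. Ebf1, a B lineage factor downstream of Runx1 that is also in the B cell marker list, had 24 and 18 called regions for pc-BMACs, 25 and 29 for plasma cells and 33 and 32 for immature B cells, with 1 region of pc-BMACs only and 6 of plasma cells only. Blk, a B cell kinase, went the other way with 3 and 1.

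Of targets outside the B lineage, Il2rb, an interleukin receptor chain bound by Runx3 in T cells, had 3 and 2 called regions among pc-BMACs, 6 and 6 among plasma cells and 2 and 1. among immature B cells It had 0 regions of pc-BMACs only and 3 of plasma cells only. Gfi1b encodes a transcriptional repressor that acts in erythroid and megakaryocyte cells. It had 1 and 1 called regions for pc-BMACs, 6 and 4 for plasma cells and 5 and 4 for immature B cells. Its population-only counts were also 0 and 3. Tied with these were Prf1, the gene of the pore-forming protein perforin, with 0 and 3, and Tcf7 with 1 and 2. Csf2, Eomes and Gfi1 went the other way, with 1 and 0 each. Prf1 had 0 and 0 regions for pc-BMACs, 3 and 3 for plasma cells and 1 and 1 for immature B cells, and it is also in the T and NK cell marker list. That list shares Tbx21 (0 and 2) and Cd8a with the targets as well, so the lists are not independent. The 26 regions of the T and NK cell list had 11 and 7 calls for pc-BMACs, 15 and 16 for plasma cells and 14 and 13 for immature B cells. Between pc-BMACs and plasma cells, 1 of 19 regions (5.26%) was pc-BMAC-only and 8 (42.1%) were plasma-cell-only, beside 8.48% and 8.99% of all regions. Prf1 held 3 and Tbx21 2 of these plasma-cell-only regions. Of the 9 genes in the list, 5 and 3 had a call among pc-BMACs, 7 and 7 among plasma cells and 6 and 5 among immature B cells. Cd8a and Ncr1 were at 0 in every library. Between pc-BMACs and plasma cells Cd5 had 1 and 1 population-only regions, and Cd3g and Lck had 0 and 0. The part of other cell types in these calls, and in those of Runx3, was not tested.

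Against immature B cells, target genes had 19 pc-BMAC-only and 38 immature-B-only regions of 159 (11.9% and 23.9%), beside 10.5% and 23.0% of all regions. Ebf1 had 3 and 14 of them, the integrin gene Itga4 2 and 3, the T cell factor gene Tcf7 2 and 3, and the repressor gene Gfi1 2 and 1, tied with Gfi1b at 0 and 3. Plasma cells against immature B cells gave 25 and 24 of 166 (15.1% and 14.5%), beside 6.46% and 18.4% of all regions. Ebf1 had 6 plasma-cell-only and 10 immature-B-only regions, Itga4 3 and 2, Il2rb 4 and 0 and Gfi1 2 and 1. The bone targets of Runx2 in the list were Mmp13, Bglap, Ibsp, Spp1, Sp7 and Col10a1. Mmp13, a collagenase gene, had 0 and 0 called regions for pc-BMACs, 2 and 2 for plasma cells and 3 and 1 for immature B cells. Spp1, which encodes osteopontin, had 0 and 0 for pc-BMACs, 1 and 2 for plasma cells and 2 and 2 for immature B cells. Neither had a call in a pc-BMAC library, where Sp7 and Bglap did. Sp7, the osteoblast factor downstream of Runx2, had 2 and 1 in the pc-BMAC libraries, 1 and 2 in the plasma cell libraries and 4 and 3 in the immature B cell libraries. Bglap had 1 in each library, and Ibsp and Col10a1 had 0. Markers of plasmacytoid dendritic cells, which express Runx2, had 35 and 28 calls for pc-BMACs, 32 and 32 for plasma cells and 45 and 42 for immature B cells, out of 62 regions. Osteoblast and chondrocyte markers had 9 and 9 among pc-BMACs, 11 and 12 among plasma cells and 16 and 15 among immature B cells, out of 19. In both lists pc-BMACs did not exceed immature B cells. The same held over all regions near genes, of which 56.3% and 48.8% were called for pc-BMACs and 73.8% and 64.9% for immature B cells. Plasma cells had 52.8% and 51.3%. The part of these cell types in the Runx2 calls was not tested.

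**Figure D5:**
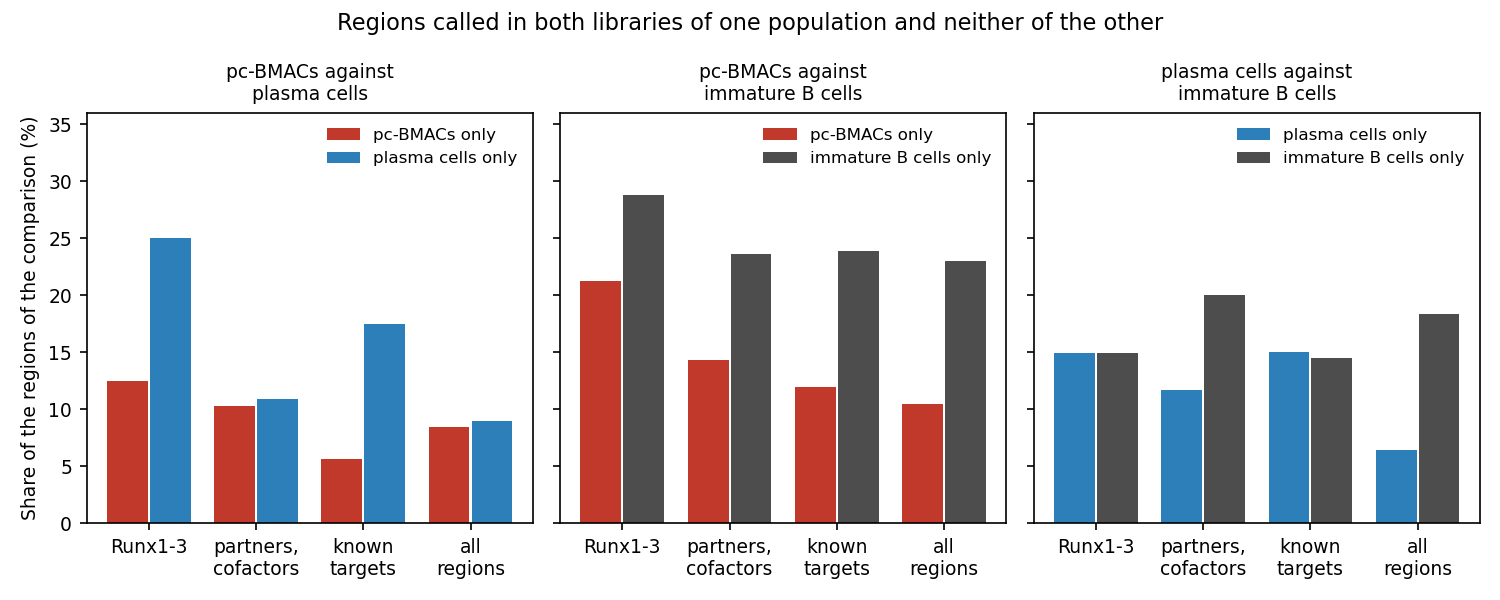
Share of regions (y axis, % of the regions called in at least 1 of the 4 libraries) called in both libraries of one population and neither of the other, for Runx1 to Runx3, the partners and cofactors, the known targets and all regions near genes. In the left panel the plasma-cell-only share is 25.0% for the Runx genes, 17.5% for targets, 10.9% for partners and 8.99% for all regions.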

How the data were processed

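ATAC-seq libraries of pc-BMACs, plasma cells and immature B cells, 2 each, were compared by their deposited peak lists (5 columns, no header). The submitters' processing notes list mm10, bedtools, HOMER 4.10 and Bowtie2 2.3.3 with no role. How peaks were called is not stated in the labels. The authors' deposited score is 1000 in each row and was set aside. Peaks are at least 150 bp wide.

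Peaks were merged (overlap of at least 1 bp, Python 3.11.15, pandas 2.3.3), a library was taken to call a region that any of its peaks overlapped, and each region went to the closest protein-coding gene of RefSeq (GRCm38.p6), up to 100 kb away, or to every gene it overlapped. In this way 94.5% of regions were assigned. The bp of peak are the summed widths of a library's peaks in a region. Promoter sequences are from RefSeq. The steps were tested on simulated peak lists. A population-only region was called in both of its libraries and in neither of the other population's, counted over regions called in at least 1 of the 4.

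Depth is unknown, so no interval was computed. The members, gene lists and tests were chosen with earlier results of these data known. Named besides the members were Cbfb, the 4 genes per list and comparison with most population-only regions (ties by alphabet, tied genes left out by it added later), some bone, T cell and erythroid genes of the lists (chosen after their values were seen), and the 3 genes nearest each member in likeness. Alternatives were the overlap rule, lists of equal length, the merging distance, the distance to the gene, shared genes, and leaving out each library.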

Additional observations from a re-analysis of the deposited data

How the results depend on the processing

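No paired analysis was possible because the lists hold only the presence of peaks and the counts come from no test. Of 60 family counts under another setting, 51 stayed within 1.5 times the reported count, and of the counts per gene 147 did and 33 did not. With regions inside the genes only, which leaves 44 of 75 regions, pc-BMAC-only counts were 4 against plasma cells and 7 against immature B cells, and plasma cells against immature B cells gave 5 and 5. Within 20 kb the immature-B-only count against plasma cells was 5. With lists of equal length immature-B-only counts were 10 against pc-BMACs and 4 against plasma cells. The cause of these last shifts was not tested. Leaving out each library in turn gave 7 to 11 pc-BMAC-only and 15 to 19 plasma-cell-only regions between those populations. It gave 14 to 15 pc-BMAC-only and 20 to 28 immature-B-only regions, and 10 to 15 plasma-cell-only and 11 to 16 immature-B-only regions. None of these counts lay below the reported one, since with 1 library left in a population the rule asks for fewer calls. The plasma-cell-only count exceeded the pc-BMAC-only count over the family in all 10 settings run. Unknown depth limits every absence of a call.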
